A study of Mus musculus with 3 samples.

Results

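Zinc finger genes that lie close to each other on a chromosome were examined for EZH2 in mouse bone marrow-derived macrophages. They were all protein-coding genes of the RefSeq table (GRCm38.p6, the assembly of mm10) with the symbol Zfp and digits alone, and with a start within 100 kb of the start of another such gene. This rule gave 201 genes, called clustered below, among 21887 protein-coding genes. The other 166 of the 367 genes with such a symbol had no neighbour that close and are called isolated. A gene called isolated can still lie beside a zinc finger gene with another kind of symbol. The symbol says little about the protein, and the isolated gene Zfp36, for example, encodes an mRNA decay factor with another type of zinc finger.

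The stimulated cells were macrophages given lipopolysaccharide (LPS) for 2 h, and the cells they were set against were untreated (NT). Both came from marrow of adult C57BL/6 mice grown in medium with M-CSF, the growth factor that turns marrow cells into macrophages. There was 1 EZH2 chromatin immunoprecipitation library per condition, and an input DNA sample that was not analysed here. No value below has a replicate check, and no test between conditions was possible. The stimulated track is named TLR in the deposited file and was taken as the LPS sample, the only stimulated one. Each library came as a list of enriched intervals, each with a whole number at its highest point. This number, the authors' own, is called the summit value, and the sources used here do not state its unit. The LPS library had 4651 intervals with summit values from 7 to 100 (median 16), and the NT library 9643 with values from 11 to 253 (median 27). The read depth and the scaling between libraries are unknown, so a lower value or a missing interval in LPS cannot be read as less EZH2. The files hold no RNA values against which to check the cell type. Of 8 macrophage marker genes, none had an LPS interval, against 16.2% of all protein-coding genes. An NT interval was found at 3 (37.5%, against 38.2% of all), which were Mertk at 36, Spi1 at 23 and Cd14 at 20. These counts are no check of the cell type.

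EZH2 is the catalytic subunit of polycomb repressive complex 2, which methylates lysine 27 of histone H3 and is known to settle at promoters rich in CpG dinucleotides. Most zinc finger genes in clusters arose by tandem duplication, and many encode DNA-binding repressors with a KRAB domain. Such repressors recruit Trim28 and the histone H3 lysine 9 methyltransferase Setdb1, and many silence transposable elements. The clusters themselves are known for lysine 9 methylation over the exons that encode the fingers.

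The promoters of 8 clustered genes are shown first, because they hold the sequence contrast that the results return to. They were chosen after the values were seen. The first 5 are all the members of 1 cluster on chromosome 8, of which 4 had an NT interval. Zfp382 had the highest CpG count in its promoter among genes of the largest cluster, with an NT interval. Zfp383 had an LPS interval alone, and Zfp180 belongs to a cluster of 10 genes without any interval. Each run is the 250 bases before the transcription start, 5′ to 3′ on the strand of the gene, from the RefSeq promoter table (GRCm38.p6), with CpG dinucleotides in capitals.
Zfp868, chr8:69625549-69625798, strand -: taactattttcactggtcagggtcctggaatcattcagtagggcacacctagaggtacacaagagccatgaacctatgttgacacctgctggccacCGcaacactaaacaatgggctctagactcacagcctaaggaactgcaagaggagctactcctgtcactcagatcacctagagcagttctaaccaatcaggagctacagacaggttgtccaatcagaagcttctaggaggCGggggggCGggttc
Zfp964, chr8:69654306-69654555, strand +: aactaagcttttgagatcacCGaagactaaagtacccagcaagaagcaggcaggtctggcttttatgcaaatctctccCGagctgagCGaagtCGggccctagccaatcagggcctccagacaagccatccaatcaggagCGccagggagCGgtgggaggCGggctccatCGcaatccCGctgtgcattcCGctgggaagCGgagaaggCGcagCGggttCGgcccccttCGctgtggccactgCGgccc
Zfp869, chr8:69716903-69717152, strand -: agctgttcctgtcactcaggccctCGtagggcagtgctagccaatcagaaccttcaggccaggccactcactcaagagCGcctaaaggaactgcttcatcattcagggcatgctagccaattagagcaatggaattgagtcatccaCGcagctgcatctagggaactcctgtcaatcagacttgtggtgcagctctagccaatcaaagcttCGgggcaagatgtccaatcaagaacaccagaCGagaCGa
Zfp963, chr8:69749963-69750212, strand -: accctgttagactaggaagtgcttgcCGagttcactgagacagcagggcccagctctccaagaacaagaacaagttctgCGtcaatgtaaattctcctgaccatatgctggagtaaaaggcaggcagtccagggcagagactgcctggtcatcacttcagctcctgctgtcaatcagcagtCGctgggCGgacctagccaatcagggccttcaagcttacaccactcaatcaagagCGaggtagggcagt
Zfp866, chr8:69774912-69775161, strand -: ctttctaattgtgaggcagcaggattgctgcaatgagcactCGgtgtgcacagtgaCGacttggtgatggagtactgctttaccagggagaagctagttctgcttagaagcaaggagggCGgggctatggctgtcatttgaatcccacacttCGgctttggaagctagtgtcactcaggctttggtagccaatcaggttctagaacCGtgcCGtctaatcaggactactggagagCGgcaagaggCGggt
Zfp382, chr7:30121682-30121931, strand +: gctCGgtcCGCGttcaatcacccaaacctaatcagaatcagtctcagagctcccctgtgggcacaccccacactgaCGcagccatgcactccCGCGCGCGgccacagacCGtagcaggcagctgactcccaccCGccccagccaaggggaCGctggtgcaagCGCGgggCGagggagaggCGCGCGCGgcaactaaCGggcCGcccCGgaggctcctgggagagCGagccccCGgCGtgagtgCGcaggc
Zfp383, chr7:29908267-29908516, strand +: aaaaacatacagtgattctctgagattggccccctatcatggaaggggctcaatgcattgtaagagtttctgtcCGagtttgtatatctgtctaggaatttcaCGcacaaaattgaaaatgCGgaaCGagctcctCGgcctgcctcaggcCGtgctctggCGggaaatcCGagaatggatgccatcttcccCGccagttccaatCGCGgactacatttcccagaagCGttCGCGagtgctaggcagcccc
Zfp180, chr7:24081647-24081896, strand +: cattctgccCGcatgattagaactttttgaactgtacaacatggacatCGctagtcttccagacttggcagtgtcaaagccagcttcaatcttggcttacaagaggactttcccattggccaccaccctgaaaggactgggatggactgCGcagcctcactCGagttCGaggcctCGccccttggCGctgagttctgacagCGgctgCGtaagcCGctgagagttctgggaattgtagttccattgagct
These 250 bases held 3 CpG in Zfp868, 16 in Zfp964, 6 in Zfp869, 5 in Zfp963 and 8 in Zfp866. They held 25 in Zfp382, 14 in Zfp383 and 10 in Zfp180.

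Clustered Zfp genes had EZH2 intervals in a smaller share than isolated ones in both libraries. An interval was counted where it came within 2.5 kb of either annotated gene end. In LPS, 16 of 201 clustered genes had one (7.96%, 95% Wilson interval 4.96 to 12.5%), against 26 of 166 isolated genes (15.7%, 10.9 to 22.0%) and 16.2% of all protein-coding genes. In NT, 57 clustered genes had one (28.4%, 22.6 to 34.9%), against 74 isolated genes (44.6%, 37.2 to 52.2%) and 38.2% of all protein-coding genes. These intervals cover counting error only and treat genes as independent, although neighbours can share an interval. No test of the difference was made, since genes are not replicates of a condition. An interval in both libraries was found at 13 clustered genes (6.47%), against 25 isolated genes (15.1%) and 15.6% of all genes. No interval in either library was found at 141 clustered genes (70.1%), against 91 isolated genes (54.8%) and 61.3% of all genes.

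**Figure D1:**
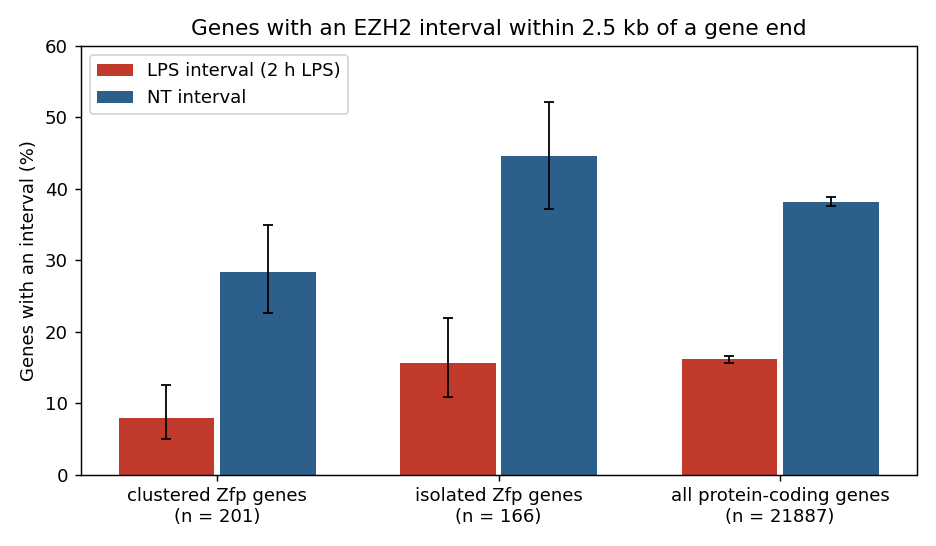
Share of genes (%, vertical axis) with an EZH2 interval within 2.5 kb of a gene end in LPS and in NT, for clustered Zfp genes, isolated Zfp genes and all protein-coding genes. Lines are 95% Wilson intervals for counting error, and the clustered genes have the lowest bar in both libraries (7.96% in LPS and 28.4% in NT).

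The clustered genes with an NT interval were for the most part without an LPS interval. NT alone had one at 44 clustered genes (21.9%), against 49 isolated genes (29.5%) and 22.6% of all genes. Read against the genes with an NT interval, those without an LPS interval were 77.2% of clustered genes, 66.2% of isolated genes and 59.1% of all genes. Such shares varied with the NT summit value. Among genes with an NT value up to 20, 1 of 14 clustered genes (7.14%) had an LPS interval, against 2 of 17 isolated genes (11.8%) and 12.8% of all genes. Among genes with an NT value over 20 and up to 30, 5 of 22 clustered genes (22.7%, 95% Wilson interval 10.1 to 43.4%) had an LPS interval, against 6 of 33 isolated genes (18.2%) and 25.3% of all genes. Over 30 and up to 40 they were 3 of 15 clustered genes (20%, 7.05 to 45.2%), against 5 of 12 isolated genes (41.7%) and 46.1% of all genes. Over 40 they were 4 of 6 clustered genes (66.7%, 30 to 90.3%), against 12 of 12 isolated genes (75.8 to 100%) and 89.2% of all genes. With so few clustered genes in each range, the intervals are wide and the differences are given as counts only.

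Summit values at the 13 clustered genes with both intervals were lower in LPS at every gene. Zfp668 and Zfp646 shared both intervals and so count the same values for each gene. The ratio of LPS to NT summit value ran from 0.216 to 0.571 with a median of 0.407. At isolated genes with both it ran from 0.333 to 0.846 (median 0.457), so all of these were lower in LPS too. At all genes with both it ran from 0.0549 to 1.76 (median 0.491). Lower LPS values were also the state of the whole lists, with medians of 16 in LPS and 27 in NT. Any difference in depth or scaling between the libraries enters this ratio. The median LPS value over genes with an LPS interval was 11 at clustered, 17 at isolated and 18 at all genes. The median NT value over genes with an NT interval was 27 at clustered, 25 at isolated and 28 at all genes.

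**Figure D2:**
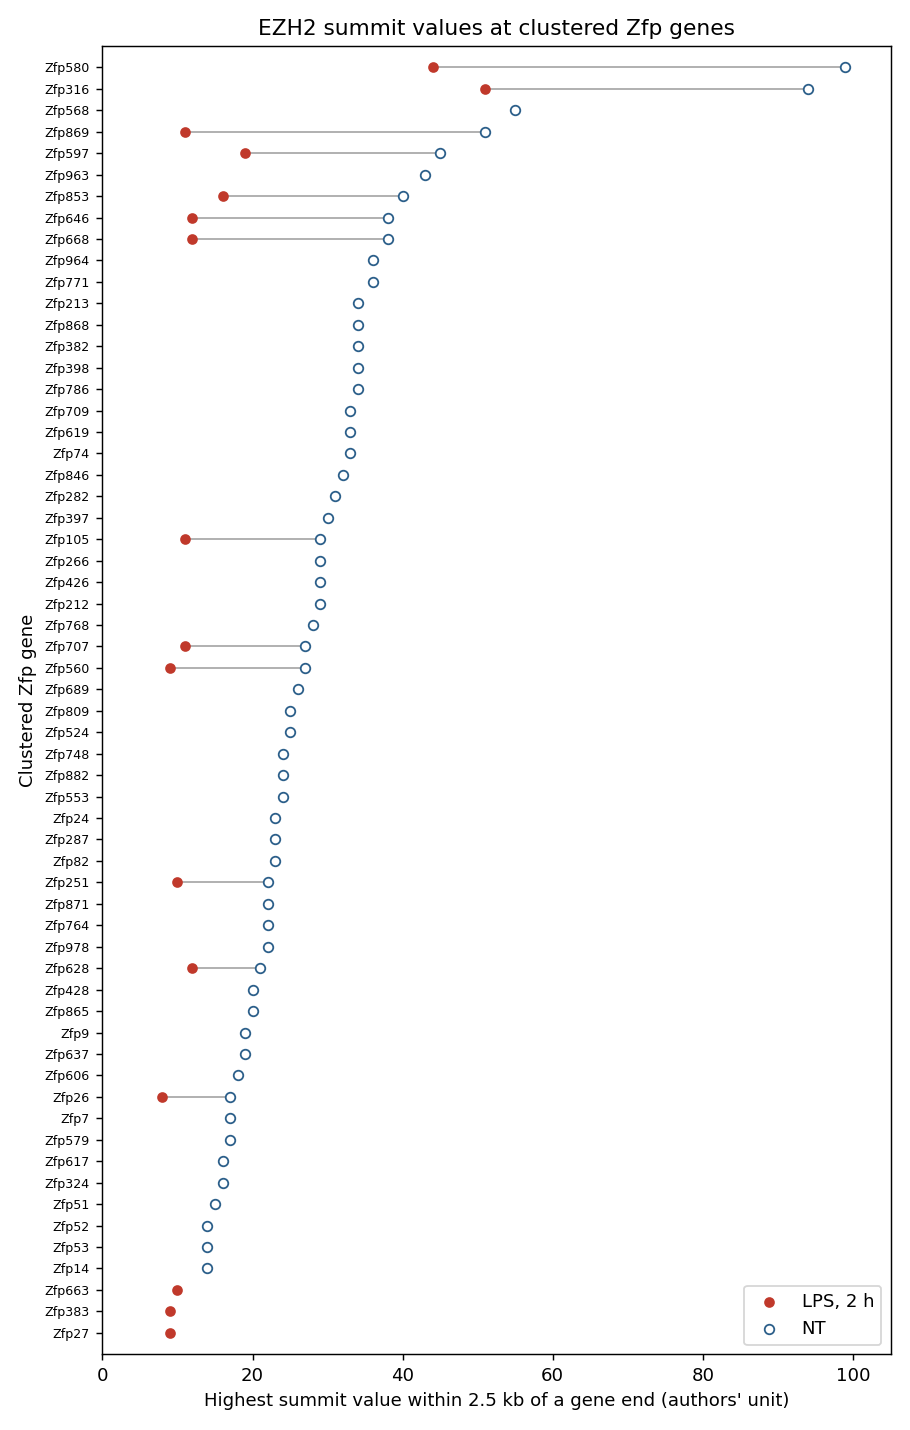
Highest summit value (horizontal axis, in the authors' unit) of LPS and NT within 2.5 kb of an end of each of the 60 clustered Zfp genes with an interval, with a grey line where both libraries had one. LPS points lie left of the NT points wherever both are present, Zfp580 and Zfp316 lie apart at the top, and most rows have an NT point alone.

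Zfp580 and Zfp316 carried the highest values of the clustered genes, and neither summit lay within 500 bp of a start. Zfp580, on chromosome 7 from 5038519 to 5053723, had a summit value of 44 in LPS and 99 in NT. Its LPS interval ran from 5051281 to 5055330 and its NT interval from 5050333 to 5058445, a width of 8113 bp. Both reached the neighbour Ccdc106, which encodes a coiled-coil protein, and the summits lay 1588 bp past the nearest Zfp580 start in the promoter table. Zfp316, on chromosome 5 from 143249695 to 143270031, had 51 in LPS and 94 in NT. The LPS interval from 143252191 to 143256171 and the NT interval from 143251638 to 143256288 lay inside the gene near its 3' end, and their summits lay 16518 bp past its start. They entered the 2.5 kb window by their edges, so the values of Zfp316 describe the gene body and not the promoter.

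Below these genes, the LPS values were 19 or less. Zfp597, whose human counterpart is an imprinted gene, had 19 in LPS and 45 in NT at its annotated 5' end, away from the start listed for it in the promoter table. Zfp853 had 16 in LPS and 40 in NT at its start, and lies 36304 bp from Zfp316. Zfp668 and Zfp646, whose annotated ends lie side by side on chromosome 7, shared 1 LPS interval with a value of 12 and 1 NT interval with 38. The human counterpart of Zfp668 has been studied as a candidate tumour suppressor in breast cancer. The NT interval there was 2390 bp wide, and with those at Zfp580, Zfp316 and Zfp853 it was 1 of the 4 NT intervals of 2 kb or wider at clustered genes. Zfp628 had 12 in LPS and 21 in NT, past its 3' end, in intervals that also came within 2.5 kb of Nat14 and Ssc5d.

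The remaining genes with both intervals had LPS values of 8 to 11. Zfp869 had 11 in LPS and 51 in NT, the lowest ratio of the group (0.216). Zfp105 had 11 in LPS and 29 in NT, and Zfp707 had 11 in LPS and 27 in NT. Zfp251 had 10 in LPS and 22 in NT. Zfp560 had 9 in LPS and 27 in NT, and Zfp26 had 8 in LPS and 17 in NT. The lowest value listed in the NT library was 11, so LPS values of 8 to 10 have no NT values of like size to be set against.

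Of the 44 clustered genes with an NT interval alone, Zfp568 had the highest value (55). In the mouse, Zfp568 represses a placental transcript of Igf2. Its NT interval of 1006 bp ran from 29983455 to 29984460 on chromosome 7, over the lower-coordinate end of the gene. Zfp963 followed with 43, Zfp771 and Zfp964 with 36, and Zfp786 and Zfp398 shared an interval with 34. The protein encoded by the human counterpart of Zfp398 is known to interact with the oestrogen receptor. Also in NT alone were Zfp282 (31), whose human counterpart binds a repressive element of a retrovirus, and Zfp809 (25), which silences murine leukaemia proviruses in embryonic cells. Zfp24 (23), needed for myelination in the mouse, was among them too. These last 3 were chosen for their known roles after their values were seen. Zfp445, which with the isolated gene Zfp57 maintains imprints in the mouse, had no interval in either library. Zfp57 had 14 in LPS and 33 in NT, and both genes were likewise chosen after their values were seen.

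An LPS interval alone was found at 3 clustered genes (1.49%, 95% Wilson interval 0.509 to 4.30%), against 1 isolated gene (0.602%) and 0.535% of all genes. Zfp663 had a summit value of 10 in LPS. Zfp27 and Zfp383 shared an LPS interval of 694 bp with a value of 9, which lay 75 bp past the Zfp383 start and at -2060 bp from the nearest Zfp27 start, measured at its summit. All 3 genes therefore rest on LPS values below the lowest NT value of 11. A signal of that size in NT might not have been listed. With the NT intervals limited to the highest 4651, as many as in LPS, an LPS interval alone was found at 8 of 201 clustered genes and 8 of 166 isolated genes, so the clustered share was then the lower one. With intervals from the median summit value of each library upward, it was found at 0 clustered genes and 1 isolated gene. The order of clustered and isolated genes in LPS alone therefore depended on these settings.

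Intervals at clustered genes were narrow. The 15 LPS intervals had a median width of 934 bp, against 1279.5 bp for 32 LPS intervals at isolated genes and 1472 bp over the whole LPS list. The 55 NT intervals had a median width of 1009 bp, against 1235 bp for 84 at isolated genes and 1305 bp over the whole NT list. Widths of 2 kb or more made up 7.27% of the NT intervals at clustered genes, against 14.3% at isolated genes and 24.3% of the whole list. In all, 21.5 kb of LPS intervals and 71.9 kb of NT intervals met the clustered genes. More than 1 Zfp gene was met by 2 of the 15 LPS and 5 of the 55 NT intervals. An end of a protein-coding gene outside the Zfp genes lay within 2.5 kb of 2 LPS and 6 NT intervals.

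Most of these intervals lay at transcription starts. Strand and start positions were in the promoter table for 172 clustered genes, and starts inside a gene were counted too. In LPS, 10 of them had an interval within 2.5 kb of a start (5.81%, against 14.6% of all genes with a start in the table). At the 3' end alone, 2 had one (1.16%, against 1.26%), which were Zfp316 and Zfp628. In NT, 41 had one near a start (23.8%, against 36.5% of all genes with a start in the table) and 4 at the 3' end alone (2.33%, against 2.31%). These 4 were Zfp316 (94), Zfp846 (32), Zfp628 (21) and Zfp53 (14). The Zfp53 interval lay over the last bases of that gene and upstream of Zfp52, which shared it. The 41 were counted over all 172 genes, and some of them had an interval at an inner start but none at a gene end. Of the 45 genes with an NT interval at a gene end, 34 had it at a start and 5 at a start and the 3' end. Zfp597 in both libraries and Zfp786 in NT had it at the annotated 5' end, away from the starts listed for them. Measured at the highest summit of each gene, 34 of 45 NT summits lay within 500 bp of a start, with a median distance of 177 bp. In LPS, 7 of 13 summits lay that close, with a median distance of 448 bp.

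The clustered genes formed 51 chains in which each start lay within 100 kb of the next. In 23 chains no member had an interval in either library, and in 2 chains every member had an NT interval. In LPS, the share of members with an interval was 10.4% in chains of 2 genes, 9.59% in chains of 3 to 5, 7.14% in chains of 6 to 8 and 3.85% in chains of 10 to 15, on 2 to 7 genes each. In NT, the share was 25% in chains of 2 genes, 28.8% in chains of 3 to 5, 53.6% in chains of 6 to 8 and 17.3% in chains of 10 to 15. The 95% Wilson intervals of the last pair were 35.8 to 70.5% and 9.38 to 29.7%. They treat genes as independent, although each of these ranges held only 4 chains and neighbours can share an interval. In the chains of 6 to 8, NT intervals were found at 1 of 8, 5 of 7, 4 of 7 and 5 of 6 members. The NT share of all protein-coding genes (38.2%) lay inside the Wilson interval of each range but that of 10 to 15. NT shares neither rose nor fell steadily with chain size, and no difference was tested.

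**Figure D3:**
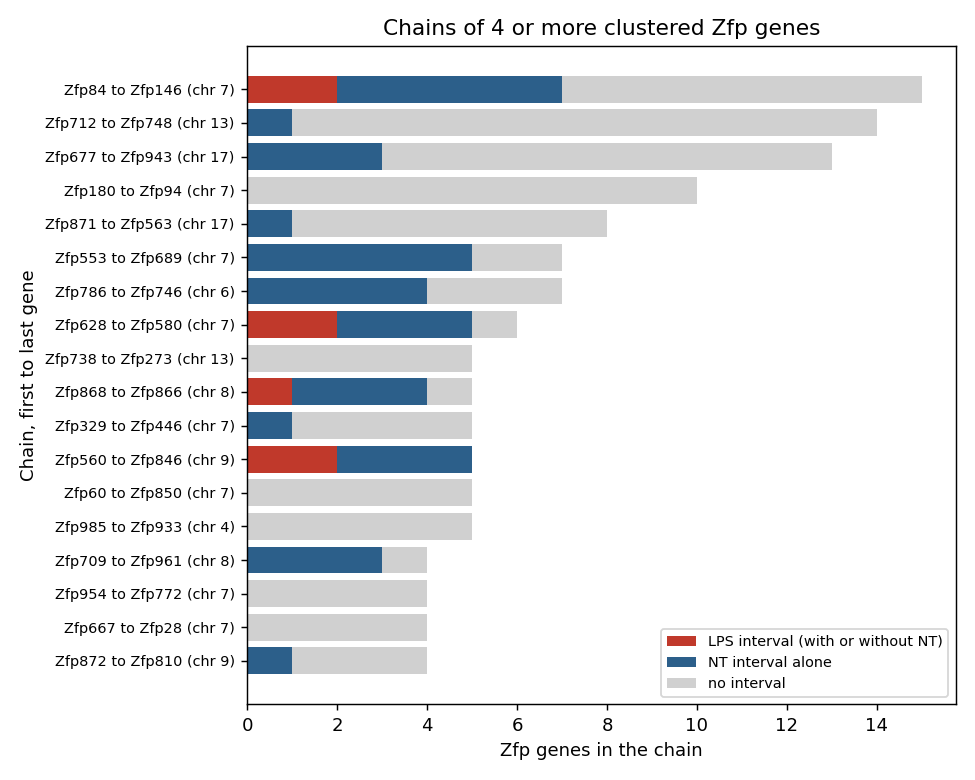
Number of Zfp genes (horizontal axis) in each chain of 4 or more clustered genes, split into genes with an LPS interval, genes with an NT interval alone and genes with no interval. The chain from Zfp180 to Zfp94 has none in 10 genes, and the chain from Zfp560 to Zfp846 has an NT interval at each of its 5 genes.

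The largest chain held 15 genes on chromosome 7, from Zfp84 to Zfp146, over 401.2 kb. In LPS it had the interval shared by Zfp27 and Zfp383 and no other. In NT, 5 genes had an interval, which were Zfp568 (55), Zfp382 (34), Zfp74 (33), Zfp82 (23) and Zfp14 (14). These 5 NT genes lay in the part of the chain from Zfp74 onward, and none of the first 5 genes from Zfp84 to Zfp420 had an interval.

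The chain of 14 genes on chromosome 13, from Zfp712 to Zfp748, had no LPS interval and 1 NT interval, at its last gene Zfp748 (24). The 13 genes on chromosome 17 from Zfp677 to Zfp943 had no LPS interval. There Zfp51 (15) and the pair Zfp53 and Zfp52 (14) had NT intervals, near the low end of the NT list. None of the 10 genes from Zfp180 to Zfp94 on chromosome 7 had an interval. Over whole chromosomes, chromosome 17 had 0 LPS and 5 NT genes (15.6%) among 32 clustered genes, and chromosome 13 had 0 and 1 (4.76%) among 21. Chromosome 7, with 72 clustered genes, had 6 in LPS (8.33%) and 21 in NT (29.2%). Chromosome 4 had 0 and 1 (8.33%) among 12. Higher NT shares were found on chromosome 9, with 3 and 7 (58.3%) among 12, and chromosome 6, with 0 and 6 (54.5%) among 11. Chromosome 8 had 1 and 7 (77.8%) among 9. The other chromosomes held 8 clustered genes or fewer. Over all protein-coding genes the shares were 16.2% in LPS and 38.2% in NT.

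In other chains most members had an NT interval. From Zfp560 to Zfp846 on chromosome 9, LPS intervals were found at Zfp560 (9) and Zfp26 (8), and NT intervals at all 5 genes, with values of 27, 17, 29, 29 and 32 in the order of the genes. The NT summits of Zfp560, Zfp26 and Zfp426 lay within 500 bp of a start, while those of Zfp266 and Zfp846 lay 28747 and 26112 bp past the starts listed for them. Zfp266 shared that interval with Zfp426 and had another at its start, with a value of 19. On chromosome 8, the NT values were 34 at Zfp868, 36 at Zfp964, 51 at Zfp869 and 43 at Zfp963, while Zfp866 at the end of the chain had no interval. Of these genes, Zfp869 had an LPS interval. From Zfp553 to Zfp689 on chromosome 7, none of 7 genes had an LPS interval and 5 had NT values of 22 to 36. From Zfp786 to Zfp746 on chromosome 6, 4 adjacent genes had NT values of 29 to 34, and the next 3 had none. From Zfp628 to Zfp580, LPS intervals were found at 2 of 6 genes and NT intervals at 5.

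Within the clusters, closely spaced genes had intervals in a larger share than widely spaced ones, a difference that was not tested. With the nearest Zfp start within 15 kb, 5 of 30 genes had an LPS interval (16.7%) and 13 an NT interval (43.3%, 95% Wilson interval 27.4 to 60.8%). Over all protein-coding genes these shares were 16.2% and 38.2%, so those of the closest range lay near them. Close neighbours can share an interval, which then counts for each gene, as the LPS interval of Zfp27 and Zfp383 does in this range. Over 15 and up to 30 kb, 8.0% of 75 genes had an LPS and 32.0% an NT interval. Over 30 and up to 50 kb, they were 6.12% and 24.5% of 49 genes. Over 50 and up to 100 kb, they were 4.26% and 17.0% (8.89 to 30.1%) of 47 genes. Among isolated genes the shares were 12.5% and 28.1% up to 300 kb, 6.25% and 40.6% up to 1000 kb, and 19.6% and 51.0% beyond. Within each part, the median number of CpG in the promoter moved the same way as the NT shares. It was 17, 12, 10.5 and 10 for the clustered ranges and 9, 11 and 18 for the isolated ones. Across the 100 kb limit it did not, since the NT share rose from 17.0% to 28.1% while the median fell from 10 to 9. The part of CpG in the shares was not tested. These ranges were chosen after the data were seen.

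**Figure D4:**
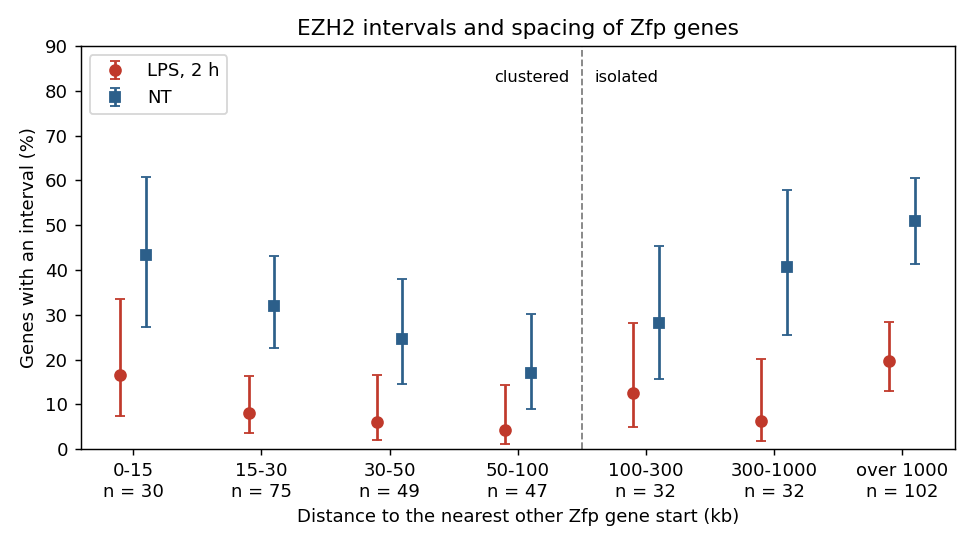
Share of Zfp genes (%, vertical axis) with an LPS or NT interval against the distance to the nearest other Zfp start (kb, unequal ranges), with 95% Wilson intervals for counting error. NT shares are 43.3% within 15 kb and 17.0% over 50 and up to 100 kb among clustered genes, and 51.0% over 1000 kb among isolated genes.

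Around the limit of the rule, the clustered genes with the farthest neighbours were Zfp968 and Zfp965, 97991 bp apart and without intervals, and Zfp846, 86231 bp from its neighbour, with 32 in NT. The nearest isolated genes were Zfp263, 103091 bp from a neighbour and with 23 in NT, and Zfp120 and Zfp937, 103670 bp apart and without intervals.

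Promoters of clustered genes with an interval held more CpG than those without. The window was 300 bases, from 250 before to 50 after the start. The median count was 19 CpG in 13 clustered genes with an LPS interval, 16 in 35 with an NT interval alone and 10 in 124 with no interval. At isolated genes the medians were 20, 24 and 10, and at all genes 22, 23 and 6. Over all clustered genes the median was 12, against 16 at isolated genes and 13 at all genes with a promoter in the table. The promoter was counted wherever the interval of the gene lay. The highest summit lay over 1 kb from a start at 5 of the 13 clustered genes in LPS and 9 of 45 in NT.

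With 11 to 15 CpG, 9 of 33 clustered genes had an NT interval (27.3%, 95% Wilson interval 15.1 to 44.2%), against 5 of 14 isolated genes (35.7%) and 44.9% of all genes. With 16 to 20 CpG they were 8 of 33 clustered genes (24.2%, 12.8 to 41.0%), against 13 of 26 isolated genes (50%) and 51.0% of all genes. With 21 to 25 CpG they were 16 of 22 clustered genes (72.7%, 51.8 to 86.8%), against 12 of 20 isolated genes (60%) and 61.3% of all genes. With 26 or more they were 3 of 7 clustered genes (42.9%), against 20 of 25 isolated genes (80.0%) and 68.7% of all genes. Up to 5 CpG, 1 of 25 clustered genes had an NT interval (4.0%), against 1 of 19 isolated genes and 7.24% of all genes. The clustered share was thus below that of all genes in 5 of the 6 ranges, among them 6 to 10 CpG with 15.4% against 23.7%, and above it in 1. Its Wilson interval lay wholly below the share of all genes at 11 to 15 and at 16 to 20 CpG alone. In the other ranges it held that share. It was 0.71 to 19.5% up to 5 CpG, 8.01 to 27.5% at 6 to 10 and 15.8 to 74.95% at 26 or more.

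**Figure D5:**
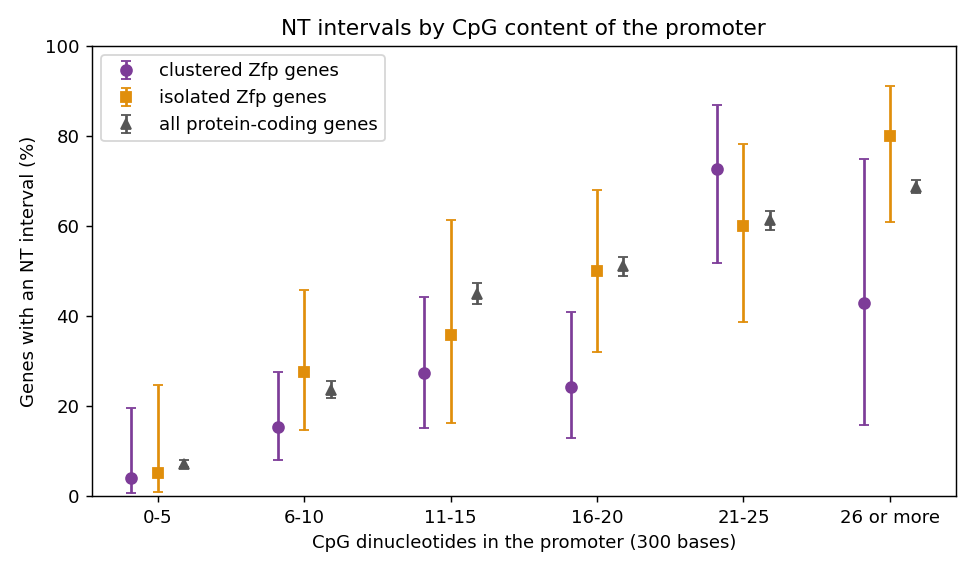
Share of genes (%, vertical axis) with an NT interval by number of CpG dinucleotides in the 300-base promoter, for clustered Zfp genes, isolated Zfp genes and all protein-coding genes, with 95% Wilson intervals for counting error. The share is 4.0% of clustered genes up to 5 CpG and 72.7% at 21 to 25 CpG.

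In the chromosome 8 chain printed above, Zfp964 followed the pattern of more CpG at genes with an interval, with 24 CpG in 300 bases and an NT value of 36. The other members departed from it. Zfp868, Zfp869 and Zfp963 had NT values of 34, 51 and 43 with 6, 8 and 9 CpG in 300 bases, while Zfp866 with 13 CpG had no interval. The NT summits of Zfp869 and Zfp963 lay 182 and 202 bp past the nearest start, outside the 300 bases, and CpG there was not counted. That of Zfp868 lay at -169 bp from its nearest start. On chromosome 6, Zfp777 with 51 CpG and Zfp746 with 39 had no interval, beside Zfp212 with 14 CpG and an NT value of 29. The printed chromosome 8 promoters were 50.4 to 57.7% identical to each other in global alignments of 250 bases. No unrelated promoters were aligned, so whether this is more than such promoters share was not tested.

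The chromosome 8 promoters were also searched on both strands for CCAAT, the core of the site of the transcription factor NF-Y. The printed run held 4 copies in Zfp869, 2 in Zfp868 and in Zfp964, and 1 in Zfp963 and in Zfp866. CCAAT occurred at least once in the 300-base promoter of 89 of 172 clustered genes (51.7%, 95% Wilson interval 44.3 to 59.1%), against 65 of 133 isolated genes (48.9%) and 39.2% of all promoters in the table. Among clustered genes, it was present in 20 of 45 promoters with an NT interval (44.4%) and in 67 of 124 with no interval (54.0%). The longer CCAATCA contains CCAAT, and both were picked from these promoters after they were seen. CCAATCA occurred 3 times in the printed run of Zfp869, 2 times in those of Zfp868 and Zfp964, and once in those of Zfp963 and Zfp866. It occurred at least once in the 300-base promoter of 31 of 172 clustered genes (18%, 95% Wilson interval 13.0 to 24.4%), against 35 of 133 isolated genes (26.3%) and 9.59% of all promoters in the table. At least 2 copies were found in 3 clustered promoters, those of Zfp868, Zfp869 and Zfp964, against 1 isolated promoter and 1.11% of all promoters. CCAATCA was present in 8 of 45 clustered promoters with an NT interval (17.8%) and in 23 of 124 with no interval (18.5%). A match of letters is a description and not a binding site.

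A list of silencing and heterochromatin genes was counted in the same way. It holds Trim28 and Setdb1, which act with KRAB zinc finger proteins, and also more general factors such as Dnmt1, Suv39h1, Atrx and members of the HUSH complex. Of its 25 genes, 3 had an LPS interval (12%, against 16.2% of all genes) and 14 an NT interval (56.0%, against 38.2%), with 11 in NT alone and none in LPS alone. Hdac2, a histone deacetylase, had 20 in LPS and 45 in NT. Hdac1, another histone deacetylase, had 13 in LPS and 23 in NT. With an NT interval alone, Mphosph8, a chromodomain protein of the HUSH silencing complex, had 38, and Atf7ip, a partner of Setdb1, had 27. Trim28 and Setdb1 had no interval in either library.

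The highest values at clustered genes were 51 in LPS and 99 in NT, against 61 in LPS and 123 in NT at isolated genes, both at Zfp653. The summits there lay 19536 bp past its start in LPS and 19600 bp past it in NT, with the end of another gene in its windows. Both intervals lay wholly beyond the 3' end of Zfp653 and also came within 2.5 kb of an end of Elavl3. Zfp827 had 38 in LPS and 96 in NT. Zfp503, a developmental repressor, had 42 in LPS and 92 in NT. Zfp651 had 40 in LPS and 78 in NT. Zfp143, an activator of small nuclear RNA genes, had 41 in LPS and 71 in NT. Zfp423, a determinant of fat cell precursors, had 44 in LPS and 64 in NT. Of these 6 genes, 5 had an NT interval of 3795 bp or wider at the highest summit, the exception being Zfp143 with 1881 bp. A gene outside the Zfp genes had an end within 2.5 kb of an end of 19 clustered genes, 9 of which had an NT interval, against 41 isolated genes, 30 of which had one. Without such genes, a choice made after the data were seen, an LPS interval was found at 14 of 182 clustered genes (7.69%), against 16 of 125 isolated genes (12.8%), and an NT interval at 48 clustered genes (26.4%), against 44 isolated genes (35.2%).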

How the data were processed

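The authors deposited 1 file of tracks for the whole series, in which each EZH2 library has 1 set of intervals and 1 of summits. BWA, SICER and mm10 are named, without version or role, per the submitters' processing notes. The value of each summit, a score with a unit that the sources used here do not state, was deposited by the authors as a whole number. Those sources also leave out sequencing depth, scaling, how the input was used and how reads with several matches were placed. Positions, deposited as BED, are printed 1-based on mm10.

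Each summit was paired with its interval by order, and every summit lay inside its interval. Genes came from the RefSeq table of GRCm38.p6. An interval counted for a gene at an overlap of 1 bp or more with 2.5 kb on each side of either gene end, and the highest summit value was taken. The start used to find neighbours was the lower coordinate in the table, whatever the strand. Promoter sequences were in the RefSeq table for 172 of 201 clustered, 133 of 166 isolated and 17492 of 21887 genes; where a gene had several, the start closest to its annotated 5' end was used for base composition. Features of the encoded proteins were planned and not analysed here. Counting was tested on simulated intervals. Wilson intervals at 95% cover counting error only. With 1 library per condition there were no tests. Python 3.11.15, pandas 2.3.3 and SciPy 1.17.1 were used.

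Members and lists were chosen with earlier results of these data known. The named genes followed a rule: the highest 10 clustered genes in each library, the 6 highest in NT alone, those in LPS alone, the 4 highest and 4 lowest ratios, the 3 largest chains, the 5 highest isolated genes in each library, and 3 genes on each side of the 100 kb limit. Genes of other chains, and genes named for a known role, were chosen after their values were seen. The lists of silencing and heterochromatin genes (25 genes) and macrophage markers (8 genes) were counted whole, and the values of 1 gene are not reported here. Alternatives were other windows, stricter intervals, other neighbour limits, starts by strand, and other symbols.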

Additional observations from a re-analysis of the deposited data

How the results depend on the processing

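No paired analysis was possible because there was a single library for LPS and for NT. In all 13 alternatives the clustered share stayed below the isolated share in LPS and in NT, but the size of the gap varied. With a neighbour limit of 50 kb, the NT shares were 31.8% of 154 clustered and 38.5% of 213 isolated genes, near the 38.2% of all genes. The LPS shares were then 9.09% and 13.1%. With a limit of 200 kb they were 28.7% and 47.4% in NT, and 8.70% and 16.1% in LPS. Of 104 values computed again, 90 moved little (shares inside their Wilson interval, counts and the ratio within 1.5 times) and 14 moved further. For those 14 the cause was not tested, beyond that both stricter choices of intervals hold fewer of them.

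Where only the upper part of each list was used, from its median summit value on, the share with an LPS interval was 1.99% of clustered and 8.43% of isolated genes, and with an NT interval 14.4% and 20.5%. Clustered genes in LPS alone then numbered 0 and in NT alone 25. Where the highest NT intervals were used, as many as in LPS, an NT interval was found at 13.4% of clustered and 19.9% of isolated genes. There were then 8 clustered genes in LPS alone and 19 in NT alone, and 8 isolated genes in LPS alone, which turns the order of the shares in LPS alone. With 5 kb windows, and with gene bodies plus 2.5 kb, isolated genes in LPS alone numbered 0. Without genes that had an end of a gene outside the Zfp genes within 2.5 kb, a choice made after the data were seen, 35.2% of isolated genes had an NT interval, against 26.4% of clustered genes.

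Unknown depth and the single library per condition limit every comparison of LPS with NT. How reads from near-identical copies of these genes were placed is not stated in the sources used, and its effect on intervals in recent duplicates was not tested.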
